A study of Mus musculus with 20 samples.

Results

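Among the 55471 genes of a mouse count table, 10 genes of the actin cytoskeleton, its vimentin neighbour and the caveolae were followed across inflamed and control skin and pancreas. They are the cytoplasmic actins Actb and Actg1, the monomer-binding genes Tmsb4x, Tmsb10 and Pfn1, the filament-severing Cfl1, the myosin light chain Myl6, the tropomyosin Tpm4, the intermediate filament gene Vim and the caveola gene Cav1. They were chosen by name with results of these same libraries known, so their differences between groups are given as descriptions with an error and without a test. Counts of those past a threshold are set beside the share of all genes that passed it.

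RNA was sequenced from wild-type (WT) mice in 2 models of chronic inflammation, with 5 libraries in each of 4 groups. For dermatitis, male and female mice of 4 to 6 weeks were sensitized on the abdomen with DNFB, a hapten that provokes contact allergy, at 0.5% and then at 0.25%, and were challenged on the back with 0.25% DNFB on 3 days per week for 22 days. The control mice received the vehicle, acetone with olive oil, and the epidermis of the back was isolated from both groups. For pancreatitis, mice of unstated age were injected with caerulein, a peptide that overstimulates the digestive-enzyme-secreting acinar cells, at 50 μg/kg in PBS hourly 6 times per day on 3 days per week for 3 weeks, and the controls received PBS. Libraries carry the numbers of their labels (acetone 1, 2, 3, 11 and 12, DNFB 4, 5, 6, 13 and 14, PBS 7, 8, 15, 16 and 17, caerulein 9, 10, 18, 19 and 20), and the labels do not say whether each came from a separate mouse, so the spread between them may be partly technical.

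Actin monomers polymerize into filaments that carry cell shape, adhesion and movement. Thymosins hold monomers in reserve, profilin delivers them to growing filament ends, cofilin cuts and disassembles old filaments, and tropomyosins and myosin stabilize filaments and pull on them. Vimentin forms the intermediate filaments typical of mesenchymal cells and leukocytes, and caveolin coats the membrane pits of endothelial cells, fibroblasts, adipocytes and basal keratinocytes.

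Depth was uneven. Totals ranged from 791491 to 2232039 counts per library, but between 37.8% and 94.3% of each total lay on 11 predicted genes with shared satellite-like sequence. The counts left outside them ranged from 93048 to 1074202 in acetone, 150442 to 685832 in DNFB, 70021 to 202059 in PBS and 88226 to 592100 in caerulein libraries. Acetone 11 and 12 stood apart from acetone 1, 2 and 3 by this measure, as did the shallow caerulein 9 and 18 from the other caerulein libraries, so results that rest on them are also given without them. The 10 genes held between 0.044% and 1.2% of the counts outside the satellite-like genes. Markers matched the labelled tissues: 6 keratinocyte genes summed to at least 207 normalized counts (CPM) in each skin library and to at most 11 in each pancreas library, and 8 acinar genes summed to at least 716 in each pancreas library and to at most 49.1 in each skin library. CPM are counts per 1000000 of the library size after scaling by the trimmed mean of M values (TMM), separately in each tissue.

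The promoters of the genes past the threshold in caerulein-treated pancreas are shown first, together with that of Myl6, because these genes are read side by side below and because 2 of the windows hold the CArG box, the element bound by serum response factor, which is known to drive actin genes. RefSeq (GRCm38.p6) gave windows of 300 bases, from 250 before to 50 after an annotated start, for 9 of the 10 genes, 13 windows in all. Actb had no window, so its promoter was not searched. Bases are written 5′ to 3′ on the strand of the gene and the CArG box is in capitals.
Actg1, chr11:120348446-120348745, minus strand: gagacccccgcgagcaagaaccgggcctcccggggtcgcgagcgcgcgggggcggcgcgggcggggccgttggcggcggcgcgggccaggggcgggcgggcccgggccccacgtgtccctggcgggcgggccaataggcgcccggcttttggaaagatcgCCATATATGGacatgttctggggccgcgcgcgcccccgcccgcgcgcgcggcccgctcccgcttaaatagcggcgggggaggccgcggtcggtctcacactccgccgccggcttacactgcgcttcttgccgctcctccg
Myl6, chr10:128492960-128493259, minus strand: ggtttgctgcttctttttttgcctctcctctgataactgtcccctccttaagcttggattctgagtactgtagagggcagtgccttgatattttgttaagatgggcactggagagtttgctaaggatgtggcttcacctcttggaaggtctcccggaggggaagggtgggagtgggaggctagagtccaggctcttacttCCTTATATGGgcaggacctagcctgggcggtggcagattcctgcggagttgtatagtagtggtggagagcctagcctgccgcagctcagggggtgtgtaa
Tmsb4x, chrX:167209169-167209468, minus strand: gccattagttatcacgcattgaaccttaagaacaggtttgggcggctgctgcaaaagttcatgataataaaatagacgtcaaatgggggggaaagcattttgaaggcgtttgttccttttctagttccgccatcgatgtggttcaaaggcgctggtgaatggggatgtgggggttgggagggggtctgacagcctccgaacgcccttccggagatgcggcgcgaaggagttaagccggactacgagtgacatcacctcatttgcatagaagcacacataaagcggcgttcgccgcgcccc
Cfl1, chr19:5490205-5490504, plus strand: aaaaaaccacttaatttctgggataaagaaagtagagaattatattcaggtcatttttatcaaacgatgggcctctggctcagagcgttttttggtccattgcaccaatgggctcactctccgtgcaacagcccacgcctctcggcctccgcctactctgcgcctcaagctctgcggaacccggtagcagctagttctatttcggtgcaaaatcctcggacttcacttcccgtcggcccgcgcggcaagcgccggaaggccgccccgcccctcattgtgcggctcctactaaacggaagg
Cav1, chr6:17306085-17306384, plus strand: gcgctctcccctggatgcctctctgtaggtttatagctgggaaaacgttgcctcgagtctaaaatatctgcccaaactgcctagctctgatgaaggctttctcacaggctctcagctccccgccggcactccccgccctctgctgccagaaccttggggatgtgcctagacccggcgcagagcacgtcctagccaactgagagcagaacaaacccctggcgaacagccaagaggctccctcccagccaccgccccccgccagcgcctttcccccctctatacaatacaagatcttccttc

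A CArG box stood in 2 of the 13 windows, CCATATATGG at position -90 from the start of Actg1 and CCTTATATGG at position -50 from an internal start of Myl6, against 1.63% of 32851 mouse windows of this length. GC boxes (GGGCGG on either strand) stood in 10 of 13 windows against 35.7% of all, and CCAAT boxes in 4 of 13 against 37.4%. The windows of Tmsb10 overlap, so a box there can be counted more than once. By gene, GC boxes stood in 8 against 38.2% of all genes, and CCAAT boxes in 4 against 41.1%. The AP-1 site TGANTCA stood in 0 of 13 against 7.81%, and the cAMP response element TGACGTCA in 1, the other window of Myl6, against 1.79%. The median GC content was 59.3% in the windows of the 10 genes and 52.7% in all windows. Matches of letters are a description and do not show binding.

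**Figure D1:**
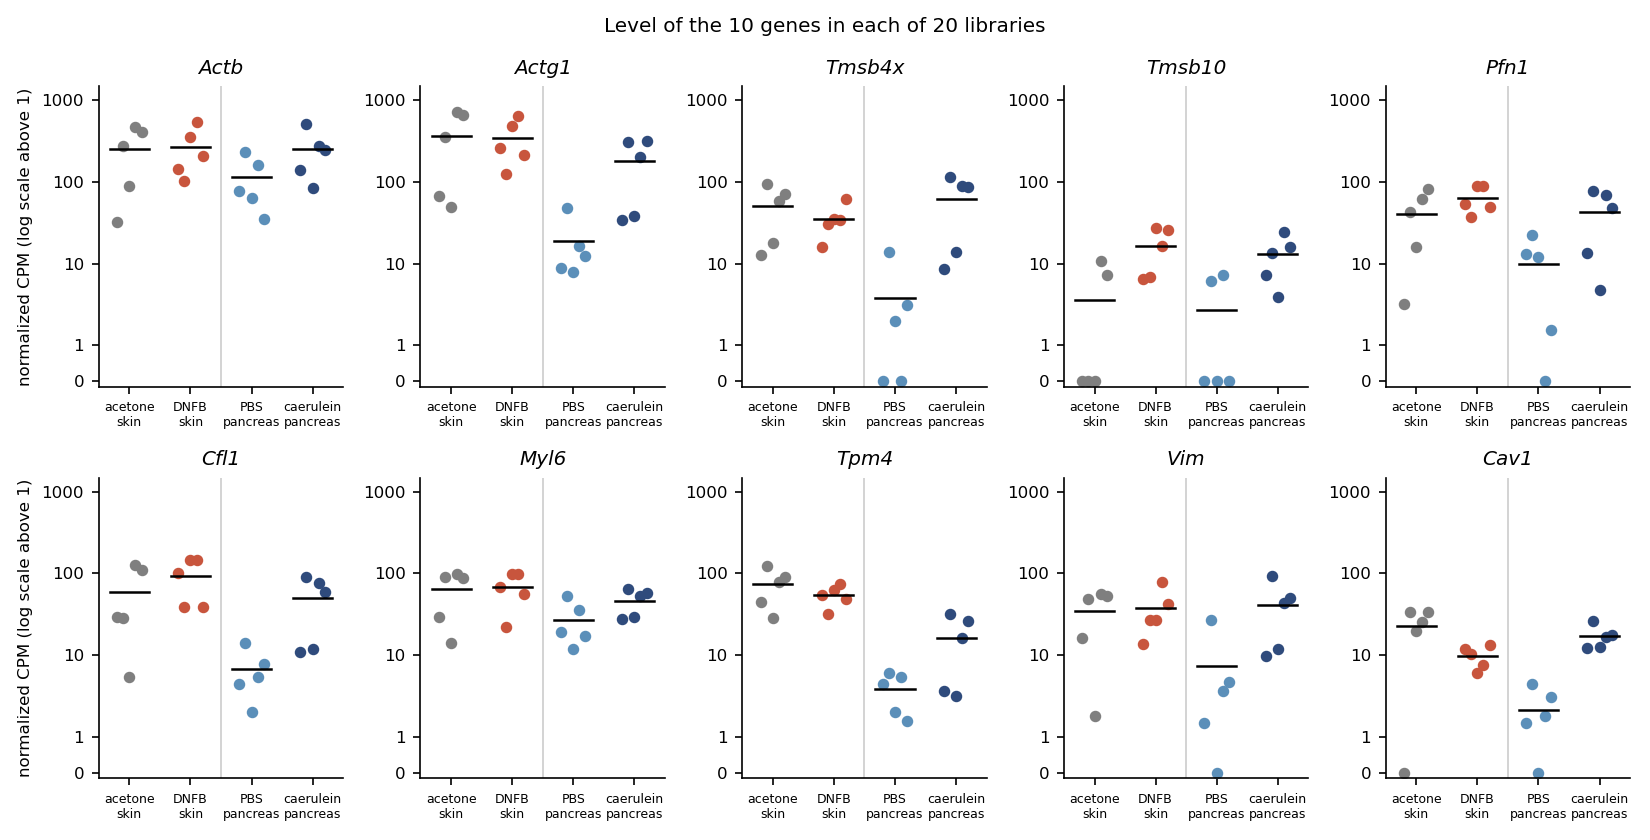
Normalized CPM of each gene (vertical axis, logarithmic above 1 and linear below) in the 5 libraries of each group, with a bar at the group mean. TMM scaling was separate in skin and pancreas, so heights are compared within a tissue. The 5 caerulein libraries lie above every PBS library for Cav1, and caerulein 9 and 18 lie below the other caerulein libraries for all 10 genes.

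In caerulein-treated pancreas all 10 genes had a higher mean level than in PBS-treated pancreas. The 8 that passed the filter on low counts had log2 fold changes from 0.76 to 3.84, and 4 of them, Actg1, Tmsb4x, Cfl1 and Cav1, passed the threshold (edgeR quasi-likelihood test, Benjamini-Hochberg adjusted p under 0.05 over all genes). Of all 946 genes tested in pancreas, 8.14% were past it in this direction, and their median log2 fold change was -0.00. Tmsb10 and Tpm4 did not pass the filter and were fitted without a test, and the median over all 10 genes was 2.29. The level of the filter was reached in 0 of 5 PBS libraries by Cav1, in 1 each by Actg1, Tmsb4x, Cfl1, Vim and Pfn1, in 4 by Myl6 and in 5 by Actb, so 6 of the 8 entered the test through their caerulein libraries. Past the threshold in the other direction were 4.02% of all genes and 0 of the 8, none of which had a negative value. For those 6 genes the filter made a lower level after caerulein unlikely from the start, so this 0 says little about direction. The RNA came from whole tissue, so more cells of a type and more RNA per cell cannot be told apart.

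Of the actins, Actg1 (chr11:120345690-120348542, minus strand), the γ isoform, differed more than Actb (chr5:142903115-142906754, minus strand), the β isoform. Actg1 was at 8.79, 47.9, 7.93, 16.2 and 12.4 CPM in PBS 7, 8, 15, 16 and 17, and at 33.9, 306, 38.2, 200.1 and 316 CPM in caerulein 9, 10, 18, 19 and 20. Only caerulein 9 and 18 overlapped the PBS range, through PBS 8. The means were 18.6 ± 16.7 and 179 ± 138 CPM (SD, n = 5 each), and the log2 fold change was 3.23 (SE 0.82). Actb was already abundant in the controls. Its levels were 77.6, 233, 63.5, 160.1 and 35.5 CPM in PBS libraries and 139, 507, 83.4, 279 and 245 CPM in caerulein libraries, with means of 114 ± 81.0 and 251 ± 164 CPM (SD, n = 5 each). The groups overlapped, 3 caerulein libraries stood above every PBS library, and the log2 fold change of 1.14 (SE 0.69) did not pass the threshold. Near-identical copies of Actg1 elsewhere in the annotation, 9 in number, held 1.12% of the counts on it and them together.

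Tmsb4x (chrX:167207093-167209315, minus strand), which codes for the main thymosin that sequesters actin monomers, had the largest log2 fold change of the 10 in pancreas. It was at 0, 13.9, 1.98, 0 and 3.09 CPM in PBS 7, 8, 15, 16 and 17, from 0, 16, 1, 0 and 2 counts, and at 8.48, 114, 14, 88.1 and 85.9 CPM in caerulein 9, 10, 18, 19 and 20, from 7, 575, 18, 342 and 437 counts. All but caerulein 9 lay above every PBS library. The log2 fold change was 3.84 (SE 0.97), and it rests on 19 counts in the 5 PBS libraries together. Its relative Tmsb10 (chr6:72957347-72958748, minus strand) was at 0 in PBS 7, 15 and 17 and at 6.10 and 7.19 CPM in PBS 8 and 16, against 3.90 to 24.2 CPM in caerulein libraries. Its fitted log2 fold change was 2.19, from 11 against 254 counts. Pfn1 (chr11:70651850-70654644, minus strand), profilin 1, ranged from 0 to 22.7 CPM after PBS and from 4.68 to 77.4 CPM after caerulein, with a log2 fold change of 2.06 (SE 0.85) that did not pass the threshold. For Pfn1 as for Actb, 3 caerulein libraries, 10, 19 and 20, stood above every PBS library.

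Cfl1 (chr19:5490455-5495201, plus strand), cofilin 1, was at 4.39, 13.9, 1.98, 5.40 and 7.73 CPM in PBS 7, 8, 15, 16 and 17 and at 10.9, 91.2, 11.7, 76.5 and 59.4 CPM in caerulein 9, 10, 18, 19 and 20. Caerulein 9 and 18 lay within the PBS range, under PBS 8, and the other caerulein libraries lay above it. The log2 fold change was 2.84 (SE 0.75). Myl6 (chr10:128490860-128494145, minus strand), the essential light chain of non-muscle and smooth muscle myosin, had the smallest log2 fold change of the 8, 0.76 (SE 0.60), with 27.2 ± 16.7 CPM after PBS and 46.3 ± 16.6 CPM after caerulein (SD, n = 5 each). The ranges of Myl6 overlapped widely. Tpm4 (chr8:72134975-72153142, plus strand) was scarce in PBS libraries, from 1 to 7 counts each, and reached 3.12 to 32.1 CPM in caerulein libraries, with a fitted log2 fold change of 2.04.

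Vim (chr2:13573927-13582826, plus strand), vimentin, was at 1.46, 27.0, 0, 3.60 and 4.64 CPM in PBS 7, 8, 15, 16 and 17 and at 9.69, 92.4, 11.7, 43.8 and 50.2 CPM in caerulein 9, 10, 18, 19 and 20. PBS 8 alone exceeded 2 caerulein libraries. The log2 fold change was 2.38 (SE 0.86) and did not pass the threshold. Cav1 (chr6:17306335-17341452, plus strand), caveolin 1, was the one gene of the 10 with no overlap between the groups. It was at 1.46, 4.36, 0, 1.80 and 3.09 CPM in PBS libraries, from 0 to 5 counts each, and at 12.1, 26.0, 12.5, 16.5 and 17.5 CPM in caerulein libraries, from 10 to 131 counts. Among all genes tested, 2.54% had every caerulein library above every PBS library. The means of Cav1 were 2.14 ± 1.66 and 16.9 ± 5.6 CPM (SD, n = 5 each), and the log2 fold change was 2.82 (SE 0.62), with the second smallest error of the 8.

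**Figure D2:**
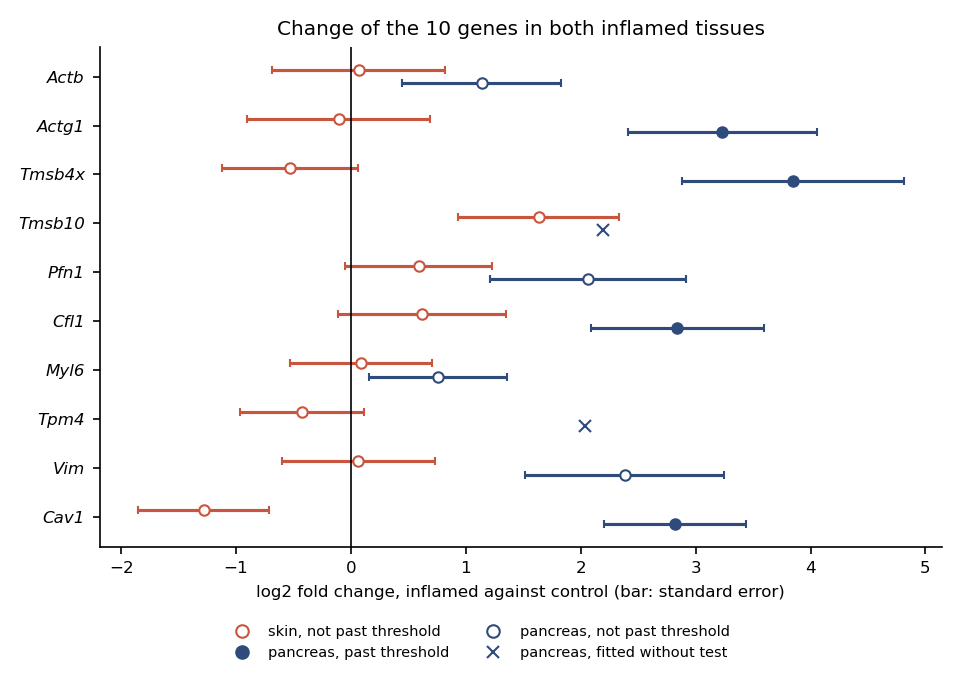
Log2 fold change of each gene (horizontal axis, with the standard error as a bar) in DNFB-treated skin against acetone and in caerulein-treated pancreas against PBS. Filled points passed the threshold and crosses were fitted without a test. The pancreas points lie from 0.76 to 3.84, and the skin points from -1.28 to 1.63 around a median of 0.07.

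The number of these genes past the threshold in pancreas depended on single libraries. Without PBS 7, 15 or 16 it was 0 by edgeR, while of all genes 0.694%, 1.23% and 1.07% passed as higher. At an unadjusted p under 0.05 there were 5 in each case, which is not comparable with these shares. The share of all genes at that level in these fits is not given here, so no weight is put on the 5. At that looser level, with every library kept, 163 of all 946 genes were higher and 114 lower. Without PBS 17 the number past the threshold was 1 (Cav1), against 1.29% of all genes, and without caerulein 20 it was 2 (Cav1 and Tmsb4x), against 2.76%. Cfl1 was also lost without caerulein 10 or 19, against 2.21% and 2.87% of all genes, and Vim was gained without PBS 8 or caerulein 9, against 14.4% and 9.92%. Without PBS 8 the log2 fold change of Vim was 4.06 (SE 0.95) and that of Tmsb4x 5.58 (SE 1.14). Without both caerulein 9 and 18, an alternative chosen after seeing the data, 8 of the 10 passed, against 18.1% of 4284 genes tested then. With the range of the library number (1 to 10 or 11 to 20) as a covariate the same 4 genes passed, against 8.56% of all genes. DESeq2, which also tested Tmsb10 and Tpm4, called 6 of 10, against 7.63% of the genes to which it gave an adjusted p.

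The count also depended on what the libraries were scaled by. The share of ribosomal protein genes itself was 0.806% to 1.63% of the counts outside the satellite-like genes in PBS and 1.33% to 4.49% in caerulein libraries. Scaled by the counts on 80 cytosolic ribosomal protein genes, the 8 tested genes had log2 fold changes from 0.09 (Myl6) to 3.11 (Tmsb4x), with a median of 1.87 against -0.54 for all genes tested, and 0 of them passed the threshold by edgeR, as did 0 of all 946 genes. At an unadjusted p under 0.05 there were 4 of the 8, all higher, against 21.8% of all genes in either direction. With library totals alone, 8 of 8 passed, but so did 58.6% of all genes, and the median of all genes moved to 1.86. Counts per 1000 ribosomal protein counts do not depend on any library size. By that ratio Actg1 was at 2.39 to 17.5 after PBS and 22.3 to 87.1 after caerulein, Tmsb4x at 0 to 5.10 and 5.97 to 32.4, and Cav1 at 0 to 2.74 and 3.78 to 8.53. These 3 genes had no overlap between the groups, against 5.18% of all genes tested that were higher in this way, whereas the ranges of the other 7 genes overlapped.

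**Figure D3:**
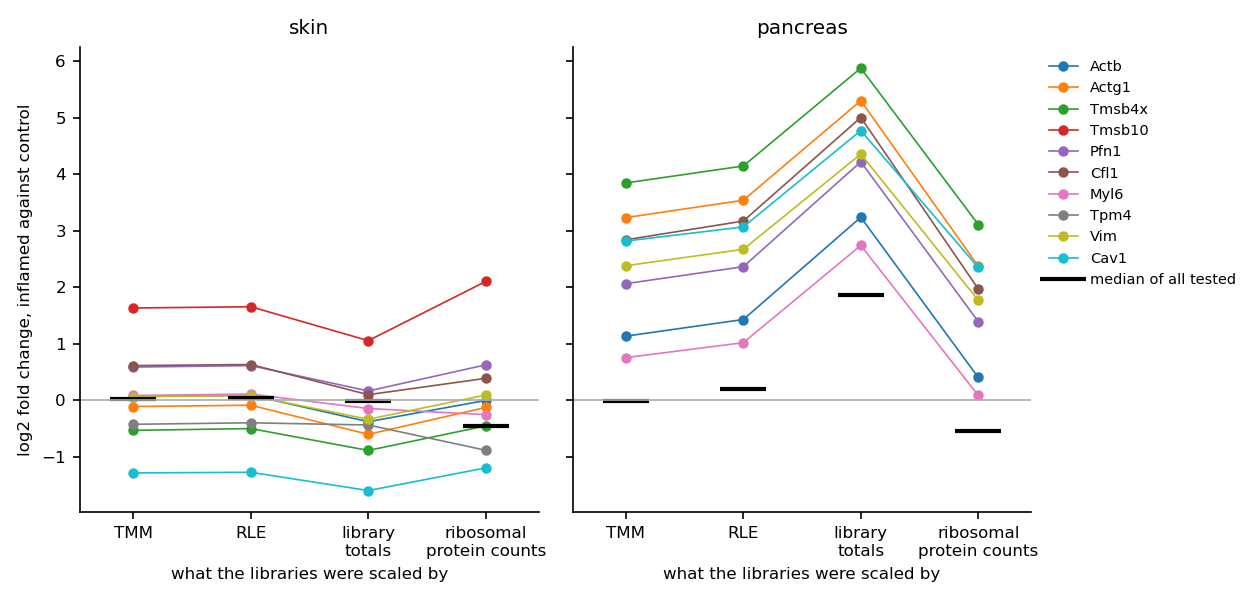
Log2 fold change of each gene (vertical axis) when libraries were scaled by TMM factors, relative log expression (RLE) factors, library totals or ribosomal protein counts, with a black bar at the median of all genes tested. In pancreas the 8 lines run nearly parallel and stay above the median of all genes, which moves from -0.00 to 1.86 with library totals and to -0.54 with ribosomal protein counts.

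In DNFB-treated skin the same genes did not differ in one direction. Of the 10, 6 had a positive and 4 a negative log2 fold change, the median was 0.07, and 0 of 10 passed the threshold by edgeR or by DESeq2. At an unadjusted p under 0.05 there were 1 higher and 1 lower by edgeR, against 5.81% of the 7265 genes tested, and 0.0413% of all genes passed the threshold by edgeR and 0.358% by DESeq2. Standard errors ran from 0.54 to 0.79, so differences within 1 or 2 of these errors were not detectable at this depth. Larger ones could be missed too. The gelsolin gene Gsn, outside the 10, did not pass at -3.15 (SE 0.94, edgeR adjusted p 0.495). That value rested on acetone 11 and 12 and was -0.86 (SE 0.73) without them, so it does not show a missed change.

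Actg1 was at 67.7, 352, 49.8, 715 and 668 CPM in acetone 1, 2, 3, 11 and 12 and at 260.2, 126, 482, 639 and 215 CPM in DNFB 4, 5, 6, 13 and 14. The acetone libraries enclosed the whole DNFB range, and the log2 fold change was -0.11 (SE 0.79). Actb had 32.2 to 475 CPM in acetone and 104 to 541 CPM in DNFB libraries and a log2 fold change of 0.07 (SE 0.75). Myl6 (0.09, SE 0.62) and Vim (0.06, SE 0.67) also had log2 fold changes near 0, and scaling by library totals turned those of Actb, Myl6 and Vim to -0.38, -0.14 and -0.33, and scaling by ribosomal protein counts that of Myl6 to -0.25. Those of Pfn1 (0.59, SE 0.64) and Cfl1 (0.62, SE 0.73) were positive but smaller than their errors, and those of Tmsb4x (-0.53, SE 0.59) and Tpm4 (-0.42, SE 0.54) were negative and likewise within 1 error of 0.

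Tmsb10 and Cav1 stood at the ends of the range in skin. Tmsb10 was at 0, 0, 0, 10.7 and 7.25 CPM in acetone 1, 2, 3, 11 and 12 and at 6.55, 6.79, 26.9, 16.5 and 25.7 CPM in DNFB 4, 5, 6, 13 and 14, with a log2 fold change of 1.63 (SE 0.70). The 3 acetone libraries without a count were the shallow ones, and DNFB 4 and 5 lay within the acetone range. Cav1 was at 0, 34.1, 19.6, 25.4 and 33.3 CPM in acetone and at 11.9, 10.2, 5.98, 7.44 and 13.4 CPM in DNFB libraries, with a log2 fold change of -1.28 (SE 0.57). Every DNFB library lay below 4 of the 5 acetone libraries, and only acetone 1, without a count of Cav1, lay under them.

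Acetone 11 and 12 set the skin values of several genes. Without them the log2 fold changes became 1.16 for Actb, 1.29 for Actg1, 1.75 for Pfn1, 2.34 for Cfl1, 0.92 for Vim and 0.78 for Myl6, and those of Cav1 and Tmsb4x shrank to -0.85 and -0.12. Tmsb10 then had no count in any acetone library, and against a floor of 3 counts in each of them it was at least 2.10-fold higher in DNFB libraries. With Tmsb10 at this bound the median of the 10 genes was 1.0, and 0 of them passed the threshold by edgeR, against 0.013% of all genes, with 3 higher at an unadjusted p under 0.05 against 9.69% of all genes tested in either direction. The median of all genes in that fit is not given here, so the 1.0 is not set against all genes.

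The 2 responses were also compared with each other in 1 fit of all 20 libraries, as the skin change minus the pancreas change. All 10 differences were negative, from -0.33 (SE 1.13) for Tmsb10 to -4.01 (SE 1.15) for Tmsb4x, against a median of -0.38 for the 8336 genes tested. Cav1 had a difference of -3.88 (SE 0.90), Actg1 of -2.99 (SE 1.14), Tpm4 of -2.21 (SE 0.89) and Actb of -0.82 (SE 1.03). By edgeR 0 of 10 passed the threshold, which 0.216% of all genes passed in this direction, and 4 were lower at an unadjusted p under 0.05 against 18.5% of all genes in either direction. DESeq2 called Cav1, Tmsb4x, Actg1 and Tpm4, against 3.54% of its genes in this direction. By edgeR Cav1 passed without PBS 8, caerulein 9, caerulein 18, acetone 1 or acetone 3, and Tmsb4x passed without any of these but acetone 1. In those fits, in that order, 1.69%, 2.09%, 1.22%, 0.61% and 2.97% of all genes were lower past the threshold. With library totals alone the median was -4.53 for the 10 genes and -2.36 for all genes, and 0 passed by edgeR. Without acetone 11 and 12 the median of the 10 differences was -0.88, against -0.17 for all genes, and 3 of them turned positive.

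The control tissues themselves differed for some of the genes, in the same fit of 20 libraries. On its common scale Tpm4 averaged 41.8 ± 20.1 CPM in acetone-treated skin and 6.46 ± 4.10 CPM in PBS-treated pancreas (SD, n = 5 each), and all 5 acetone libraries stood above every PBS library, as they did for 4.29% of all genes tested. Actg1 averaged 209.9 ± 179 and 33.1 ± 36.7 CPM, with 3 acetone libraries above every PBS library. Tpm4 (log2 difference 2.64, SE 0.68) and Actg1 (2.65, SE 0.84) were the 2 of 10 past the threshold, against 6.83% of all genes in this direction. The log2 differences of Actb (-0.40, SE 0.73) and Myl6 (-0.33, SE 0.62) were within 1 error of 0 and turned positive with library totals, which moved the median of all genes from 0.30 to 2.95. Once acetone 11 and 12 were left out, 0 of the 10 passed by edgeR, with 1 higher and 1 lower at an unadjusted p under 0.05, and 0.767% of all genes passed as higher.

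The balance of the 2 actins does not depend on how libraries are scaled. Actb made up 89.8%, 82.9%, 88.9%, 90.8% and 74.2% of the counts on Actb and Actg1 in PBS 7, 8, 15, 16 and 17 and 80.4%, 62.3%, 68.6%, 58.2% and 43.7% in caerulein 9, 10, 18, 19 and 20. The means were 85.3% ± 6.94 and 62.6% ± 13.5 (SD, n = 5 each), and the shallow caerulein 9 was the one caerulein library above the lowest PBS library. The pancreas means differed by -22.7 percentage points, and by -27.1 to -17.9 with any one library left out. In skin the share was lower, at 43.7% ± 12.2 in acetone and 43.6% ± 5.26 in DNFB libraries (SD, n = 5 each), a difference far within the spread of either group. Every skin library, at 32.3% to 64.1%, lay below every PBS library. The interval of a single library was wide where counts were few, as for PBS 17 with 55.4% to 88.1% (exact 95% binomial, from 31 counts), and narrow where they were many, as for caerulein 20 with 41.8% to 45.5%. Since Smart-Seq2 reads carry no molecular identifiers, these intervals cover counting error only.

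The balance of the 2 thymosins is likewise a description, since the pair was chosen with these libraries known. Tmsb4x made up 100%, 100%, 100%, 84.3% and 90.8% of the counts on Tmsb4x and Tmsb10 in acetone 1, 2, 3, 11 and 12, and 71.1%, 81.8%, 56.6%, 67.7% and 70.5% in DNFB 4, 5, 6, 13 and 14. The skin groups did not overlap, with means of 95% ± 7.19 and 69.5% ± 9.0 (SD, n = 5 each). The lowest acetone share, 84.3%, lay within the exact interval of DNFB 5, 59.7% to 94.8% from 22 counts. The shares of 100% rested on 4 to 33 counts, and the lower ends of their exact intervals were 39.8%, 89.4% and 69.2%. In pancreas PBS 7 had no thymosin count and PBS 15, 16 and 17 had 1 to 4, so PBS 8, with 69.6% of 23 counts (exact interval 47.1% to 86.8%), was the one PBS library with over 4. Caerulein libraries ranged from 53.8%, from 13 counts in caerulein 9, to 89.6%.

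**Figure D4:**
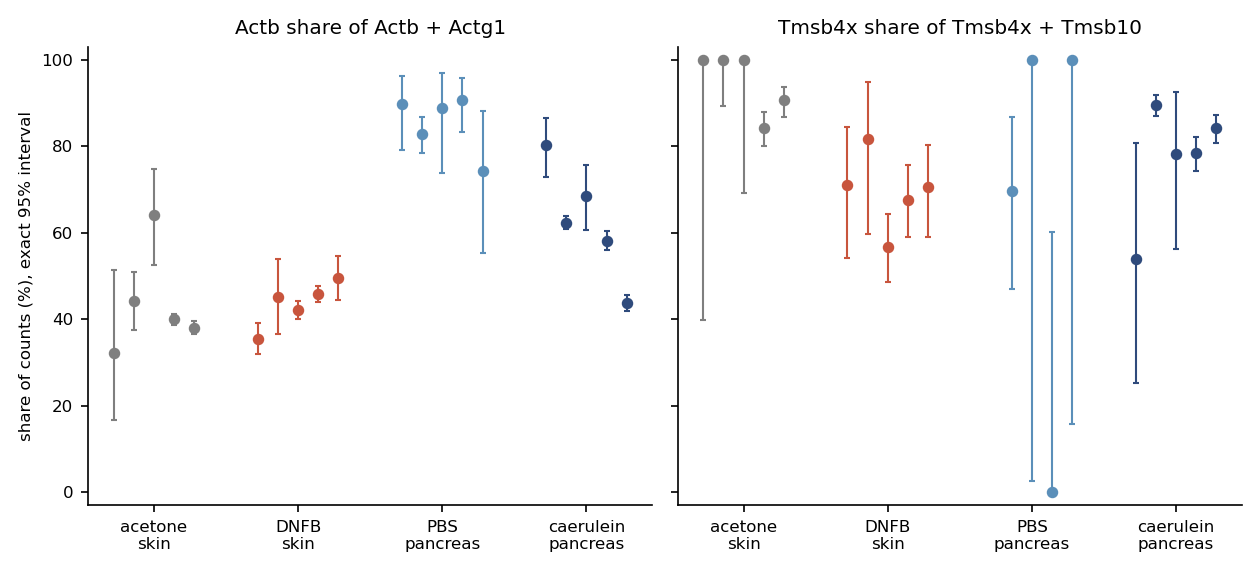
Share of Actb in the counts on Actb plus Actg1 and of Tmsb4x in the counts on Tmsb4x plus Tmsb10 (vertical axes, percent) in each library, with its exact 95% interval. The Actb share lies at 74.2% to 90.8% in PBS and 43.7% to 80.4% in caerulein libraries, and the Tmsb4x share at 84.3% to 100% in acetone and 56.6% to 81.8% in DNFB libraries. PBS 7 has no thymosin count and no point.

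Levels of different genes were compared per kilobase of transcript. In PBS-treated pancreas Actb led with 59.3 ± 42.2 CPM per kilobase, followed by Myl6 with 41.0 ± 25.1 and Pfn1 with 11.4 ± 10.8, and Cav1 was last with 0.85 ± 0.66 (SD, n = 5 each). In caerulein-treated pancreas Actb stayed first with 131 ± 85.2, but Actg1 with 91.7 ± 70.7 and Tmsb4x with 80.9 ± 62.2 stood ahead of Myl6 with 69.6 ± 25, and Cav1 was again last with 6.71 ± 2.22. In both skin groups Actg1 was first, with 189.8 ± 162 in acetone and 177 ± 108 in DNFB libraries, ahead of Actb and Myl6. Tmsb10 was last in acetone and Cav1 in DNFB libraries. In 35 of 36 pairs of neighbours in these orders the ranges overlapped, the exception being Vim above Cav1 in DNFB libraries. Within libraries the order was the same in 5 of 5 for 6 of the pairs: Vim over Cav1 and Actg1 over Actb in DNFB, Myl6 over Pfn1 and Actg1 over Tmsb4x in PBS, and Pfn1 over Cfl1 and Tmsb10 over Tpm4 in caerulein libraries.

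The rest of the actin, intermediate filament, microtubule and caveola machinery was read from 10 lists with 110 genes, none of them among the 10 genes above. In caerulein-treated pancreas 16 of the 110 passed the filter on low counts, 15 of these had a positive log2 fold change with a median of 1.57, and 4 rose past the threshold (edgeR, 25% of 16 against 8.14% of all genes). Of the 16, 12 reached the level of the filter in at most 1 PBS library, so most were tested through their caerulein libraries, and these counts are a description. The 4 past the threshold were the tubulins Tuba1b (log2 fold change 3.18, SE 0.85, adjusted p 0.0241) and Tubb5 (2.58, SE 0.76, adjusted p 0.0371), the filament-binding transgelin 2 gene Tagln2 (2.73, SE 0.80, adjusted p 0.0361) and the filament-severing gelsolin gene Gsn (2.32, SE 0.74, adjusted p 0.0446). Tuba1b and Tagln2 were higher in each of 5 caerulein libraries than in any PBS library, Gsn in 4 and Tubb5 in 3. Without any one of PBS 7, 15, 16 or 17 or caerulein 10 or 20 none of these 4 passed, without caerulein 19 Tuba1b alone did, and none did when libraries were scaled by ribosomal protein counts, where 13 of the 16 were positive with a median of 0.98.

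By list, the tubulins had 2 of 2 tested genes higher past the threshold, filament capping and severing 1 of 2 and crosslinking and membrane linkers 1 of 4. Within the last 2 lists, the capping protein gene Capzb had a log2 fold change of 2.24 (SE 0.73, adjusted p 0.0507) and the filamin gene Flna one of 1.75 (SE 0.66, adjusted p 0.0892). The lists of actin monomer binding and filament turnover (Dstn, 1.17, SE 0.61, adjusted p 0.207), tropomyosins and non-muscle myosin (Tpm3, 1.3, SE 0.82, adjusted p 0.287), intermediate filaments and their linker (the linker gene Plec, 0.73, SE 0.62, adjusted p 0.449) and caveolins and cavins (Cavin1, 1.43, SE 0.69, adjusted p 0.172) had 1 to 3 tested genes each and 0 past the threshold. Of the intermediate filament list 3 genes were tested, all positive with a median of 1.16, and Plec lay below that median. No gene of the Arp2/3 complex, which branches filaments, or of the other actin isoforms passed the filter. Arpc1b of that complex was nevertheless at 1.46 to 6.10 CPM after PBS and 6.06 to 111 CPM after caerulein, whereas Acta2, the smooth muscle actin, averaged 1.22 CPM after PBS, all of it in 1 library, and 2.98 CPM after caerulein, with overlapping ranges.

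In DNFB-treated skin 71 of the 110 genes were tested, 30 had a positive log2 fold change, and 0 passed the threshold by edgeR, against 0.0413% of all genes. At an unadjusted p under 0.05 there were 0 higher and 3 lower, beside 214 higher and 208 lower among all 7265 genes tested. DESeq2 called 1, as lower, against 0.184% of its genes in this direction. The median of -0.11 stood beside 0.02 for all genes tested. The gene farthest from 0 was Gsn, at 483 ± 588 CPM in acetone and 54.1 ± 36.3 CPM in DNFB libraries (SD, n = 5 each), with a log2 fold change of -3.15 (SE 0.94, edgeR adjusted p 0.495). Its acetone mean rested on acetone 11 and 12, at 653 and 1439 CPM against 48.3 to 224 CPM in acetone 1, 2 and 3, and without them the log2 fold change was -0.86 (SE 0.73, adjusted p 0.785). Cavin1, which codes for the coat protein that works with caveolin 1, had -1.40 (SE 0.60, adjusted p 0.791), and the cytolinker gene Plec -1.24 (SE 0.54, adjusted p 0.792). Acta1, Wdr1, Tpm1, Lmna, Arpc2, Flna, Dstn and Tpm3 were between -0.77 and -0.05, and Arpc1b, Capzb, Tuba1b, Tubb5 and Tagln2 between 0.06 and 0.53, with adjusted p from 0.965 to 0.997. The sign of Tuba1b was kept in 14 of 19 alternatives and that of Tagln2 in 18 of 19. Without acetone 11 and 12, 53 of 70 genes tested were positive, the median was 0.75 and 0 passed the threshold, against 0.013% of all genes. The median of all genes in that fit is not given here, so 53 of 70 and 0.75 are not set against all genes. Plec was then at -0.77 (SE 0.63, adjusted p 0.776), Tagln2 at 2.70 (SE 0.81, adjusted p 0.261), Capzb at 2.03 (SE 0.69, adjusted p 0.333) and Tubb5 at 1.75 (SE 0.91, adjusted p 0.556), and Cavin1 no longer passed the filter.

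**Figure D5:**
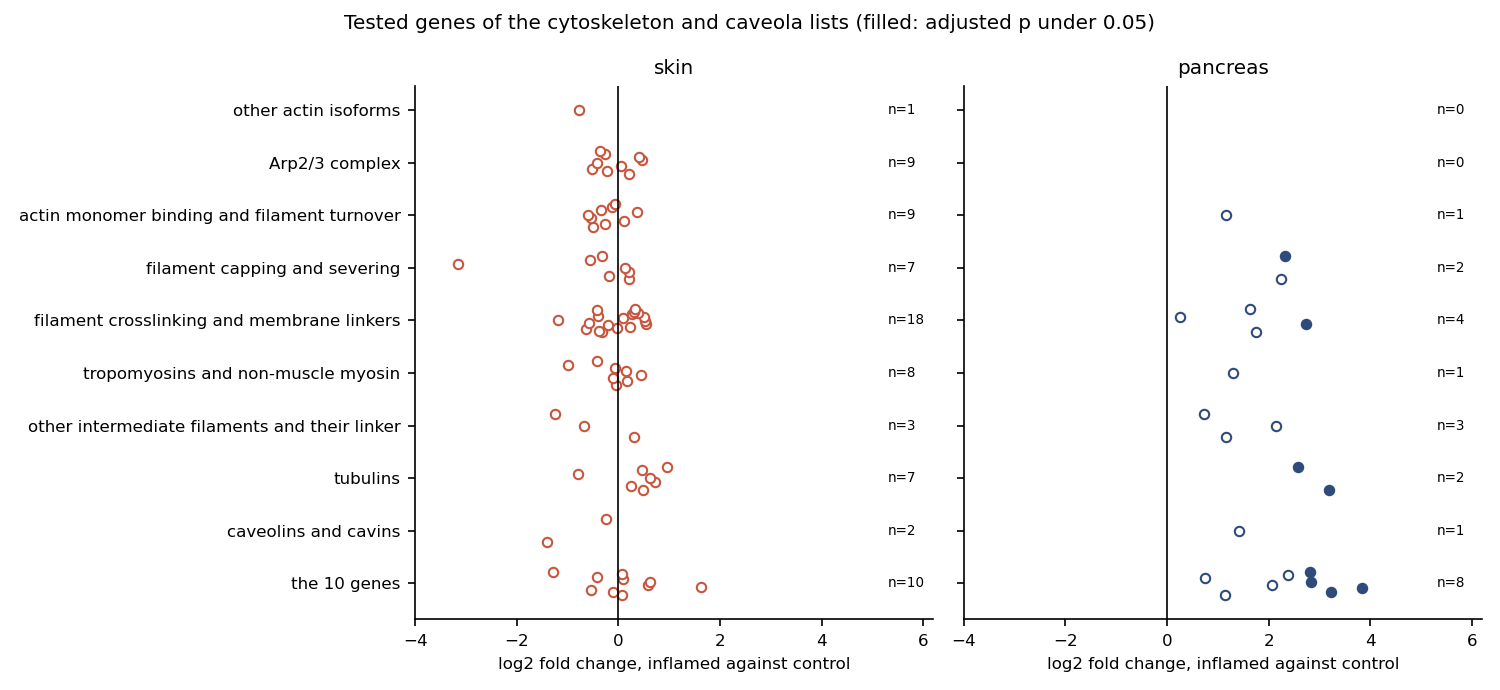
Log2 fold change (horizontal axis) of each tested gene in 9 lists of cytoskeleton and caveola genes and of the 10 genes described here, with the number tested beside each row and filled points past the threshold. In pancreas 14 of 14 points outside the bottom row lie to the right of 0, and in skin 28 of 64 do.

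Markers of other cells also differed between the pancreas groups. Of the 8 leukocyte markers 4 were tested and 2 rose, Lyz2 (log2 fold change 4.6, SE 1.08, adjusted p 0.0166) and Cd74 (2.66, SE 0.76, adjusted p 0.0342), and the summed list was at 46.9 to 177 CPM after PBS and 118 to 1599 CPM after caerulein. Of the 6 fibroblast markers 4 were tested and Dcn rose (2.78, SE 0.81, adjusted p 0.0361), with sums of 20.5 to 475 and 128 to 1107 CPM. All 8 acinar markers were tested and 7 fell, from Cel by 2.49 to Pnlip by 4.59 on the log2 scale, with sums of 6613 to 75493 and 716 to 7767 CPM. The 6 endothelial markers summed to 7.32 to 25.2 CPM after PBS, where Cdh5 was at 0, and to 11.3 to 19.5 CPM after caerulein, and the 7 smooth muscle and pericyte markers to 0 to 17.4 CPM, with Cnn1 at 0, and 7.47 to 26.4 CPM. Vim is itself expressed by fibroblasts and leukocytes and Cav1 by endothelium and fibroblasts. The 5 duct cell markers, untested, summed to 1.98 to 8.99 CPM after PBS and 24.2 to 201 CPM after caerulein. With ribosomal protein scaling the medians of the tested leukocyte, fibroblast and acinar markers were 0.96, 0.83 and -3.20, with 0 past the threshold. The part of these cells in the values of the 10 genes was not tested.

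In skin none of these lists had a gene past the threshold. The fibroblast list summed to 139 to 639 CPM in acetone and 110 to 187 CPM in DNFB libraries, with a median log2 fold change of -1.86 over 5 tested genes, beside the lower Cav1, and the median was -0.85 without acetone 11 and 12. The leukocyte list summed to 686 and 1033 CPM in acetone 11 and 12, against 44.5 to 105 CPM in acetone 1, 2 and 3 and 62.5 to 271 CPM in DNFB libraries. Its median over 6 tested genes was -0.38, and 1.28 without acetone 11 and 12. The keratinocyte list, 6 of 6 tested, had a median of -0.73, and -0.13 without them. Their part in the skin values was not tested either.

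Over all 20 libraries the 10 genes were high and low in much the same libraries. Each gene's log2 CPM had a Pearson r of 0.62 (Tpm4) to 0.92 (Actg1) with the mean of the standardized values of the other 9. The 4 genes named as most like the mean of the 10, of 833 genes tested in both tissues, were the cathepsin genes Ctsb (r 0.96) and Ctsz (0.95), the class I histocompatibility gene H2-D1 (0.95) and the apolipoprotein gene Apoe (0.91). Their r was 0.91 to 0.94 within the 10 skin libraries and 0.94 to 0.97 within the 10 pancreas libraries. All points share the libraries and their depth, which differed widely, so these values are a description only.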

How the data were processed

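RNA was prepared by a modified Smart-Seq2 protocol without molecular identifiers and sequenced from 20 libraries. The authors deposited 1 table of RSEM expected counts per Ensembl gene (STAR 2.5.3 and RSEM 1.3.1 on mm10, and DESeq2 1.24.0, per the labels), of which 94.7% were whole, and 0 columns of it were left unused. Expected counts were rounded here and tested with edgeR 4.0.16 (quasi-likelihood, R 4.3.3, limma 3.58.1) in each tissue, 5 against 5 libraries, with TMM factors, a filter at a minimum count of 10 (filterByExpr), Benjamini-Hochberg adjustment over all genes tested and a threshold of 0.05. The difference between tissues and the control tissues came from 1 fit of 20 libraries. Standard errors were derived from the F statistic. A share of counts has an exact binomial interval at the 95% level, and a count of 0 was set against a floor of 3 counts. Totals were 791491 to 2232039 counts per library.

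The members and the lists were chosen with earlier results of these data known. Genes of the other cytoskeleton and caveola lists were named by a fixed rule (up to 4 per list past the threshold in either tissue, filled to 2 by mean log2 CPM), marker genes where past the threshold or at 0, and genes of like pattern were the 5 with the highest Pearson r; 1 of these and the genes of 1 list, which stays in the counts over all lists, are not reported here. Alternatives were RLE factors, library totals, ribosomal protein scaling, no filter, 10 counts in every library, satellite-like genes left out, a covariate for the range of library numbers, 1 fit of 20 libraries, DESeq2 1.42.0, each library left out, and acetone 11 and 12 left out. Chosen after seeing the data were the pancreas without caerulein 9 and 18, all alternatives for the control tissues and the shares with each library left out. On simulated counts of 7265 skin genes, 200 of them changed by 3 on the log2 scale, edgeR recovered 90% with 6 false calls. On 946 pancreas genes it recovered 95.5% with 13 false calls. Every gene was simulated with the same spread and without outlying libraries, so these rates do not give the sensitivity in the real libraries. Gene positions come from GENCODE (GRCm38) and promoter windows from RefSeq.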

Additional observations from a re-analysis of the deposited data

Results flagged for a closer look

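Of 48 sets of 5 libraries examined for a value far from the others, 1 met the criterion, where chance would give about 2.4. Cav1 was at 0 CPM, from 0 counts, in acetone 1, while the other acetone libraries were at 19.6 to 34.1 CPM. Acetone 1 had 93048 counts outside the satellite-like genes, the fewest of the acetone libraries.

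For Gsn, the skin change minus the pancreas change was -5.16 on the log2 scale (SE 1.18, edgeR adjusted p 0.0493), just past the threshold. Of all genes tested, 0.216% passed it in this direction. Gsn was at 48.3, 224, 53.4, 653 and 1439 CPM in acetone 1, 2, 3, 11 and 12 and at 22.1 to 113 CPM in DNFB libraries, and at 5.86 to 21.8 CPM in PBS and 17.9 to 176 CPM in caerulein libraries. The sign was the same in 24 of 24 alternatives, and 7 of them passed the threshold. With 1 library left out it passed without PBS 8, caerulein 9, caerulein 18, acetone 1 or acetone 3, 5 of 20 cases, with adjusted p from 0.0113 to 0.161. Without acetone 11 and 12 it was -3.11 (adjusted p 0.367), and by DESeq2 -6.23 (adjusted p 0.00125).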

How the results depend on the processing

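No value past the threshold changed direction in the alternatives run, but counts past the threshold did change. Of the 10 genes, the 4 higher in caerulein-treated pancreas became 8 with no filter, 8 with library totals only, 8 without caerulein 9 and 18, 2 in 1 fit of 20 libraries, 1 with 10 counts required in every library (where Actb alone was fitted) and 0 with ribosomal protein scaling, while 3.18%, 58.6%, 18.1%, 1.3%, 16.8% and 0% of all genes tested passed. The range was 0 to 5 with 1 library left out, against 0.694% to 14.4% of all genes. The 4 other cytoskeleton and caveola genes higher there became 38 of 110 with no filter, 29 of 84 with DESeq2 (7.63% of all), 29 of 71 without caerulein 9 and 18, 15 of 16 with library totals only, 1 of 21 with satellite-like genes left out (4.43% of all), 0 with 10 counts in every library, where none was tested, and 0 of 16 with ribosomal protein scaling, and ranged from 0 to 12 with 1 library left out. In skin DESeq2 called 1 of these other genes lower, with 0.184% of all its genes, where edgeR called 0. For the difference between tissues, 0 of the 10 became 4 with DESeq2 and 1 with RLE factors, where 3.54% and 0.396% of all genes were lower past the threshold. With 1 library left out it was 0 to 2, against 0% to 2.97% of all genes. For the control tissues, 2 became 9 with library totals only, where 74.5% of all genes passed, and 0 without acetone 11 and 12 (0.767%). Over all genes in pancreas, 77 higher and 38 lower became 554 and 18 with library totals only, 653 and 95 with DESeq2, and 0 and 0 with ribosomal protein scaling, and the share with a positive log2 fold change moved from 49.9% to 92.1% with totals and 36.5% with ribosomal protein scaling. In skin the latter moved it from 51.7% to 27.5%. The cause was not tested. No paired analysis was possible because no library number is shared between groups. Depth limits the low genes most: Tmsb4x, Tmsb10 and Cav1 had 0 to 16 counts in any PBS library, and intervals cover counting error only.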
